A study of Mus musculus and Homo sapiens with 20 samples.

Results

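The comparison set 2 WT haematopoietic stem and progenitor cell (HSPC) libraries against 2 WT mouse embryonic stem (mES) cell libraries, all profiled for H2AK119ub, 4 of the 20 libraries in the series. The rule that picked the libraries used cell type, genotype and antibody, and the comparison itself was chosen with earlier results of these data known. Both groups were Tet2 wild type, so no allele separated them. The mES cells were a line grown with serum, LIF and the inhibitors CHIR99021 and PD0325901, and were passaged on gelatin to clear feeder cells. The HSPCs were Lin-c-Kit+ (LK) cells, sorted with magnetic beads from the bone marrow of mice aged 6 to 8 weeks, a mixture of stem and committed progenitor cells. The labels also describe a suspension culture of such cells with cytokines, SCF, IL-3 and GM-CSF among them, and do not say whether fresh or cultured cells entered these libraries. The donors were C57BL/6 mice, per the study's methods. Cell type therefore cannot be told apart from source, strain and culture. Nothing in the labels says that the replicates came from separate animals or cultures, so p-values measure only the spread between these samples, which may be technical.

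H2AK119ub is a single ubiquitin on a lysine in the tail of histone H2A. Polycomb repressive complex 1 (PRC1), whose RING1 and RNF2 subunits carry the ligase activity, installs it, and the PR-DUB complex of BAP1 with an ASXL partner removes it. PRC2, with the methyltransferases EZH1 and EZH2, places H3K27me3 and often occupies the same CpG islands. In embryonic stem cells the mark is best known over the promoters of developmental regulators such as the Hox genes, and thinner H2AK119ub is spread over much of the genome.

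Each library was a list of peaks, the intervals in which signal was called over background in CUT&Tag. That assay tags DNA near an antibody with a transposase. The labels name no library made with a control antibody, so whether a given peak holds the mark itself was not tested. The lists give positions only, with no counts or heights, so the depth behind a value is unknown. Reported values are how many bases or genes a list covered, on the autosomes of mm10. A promoter was the window from 1 kb before to 1 kb after the start of a protein-coding gene in GENCODE M21, and it was marked where a peak touched it. For each gene, "HSPC only" means marked in both HSPC libraries and neither mES library, and "mES only" the reverse. The 20807 autosomal coding genes were the background throughout.

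The promoters below are examples from these classes, shown because CpG content is compared between classes further on, with CG dinucleotides in capitals. They are the 250 bases immediately before the RefSeq start (GRCm38.p6, the assembly of mm10), 5′ to 3′ on the gene's strand. Pspn (chr17:57000106-57000355, minus strand) and Rps12 (chr10:23787210-23787459, minus strand) come from HSPC only genes. Actrt2 (chr4:154667868-154668117, minus strand) and Kcnh5 (chr12:75177333-75177582, minus strand) come from mES only genes. Ascl2 (chr7:142969265-142969514, minus strand) was covered over its whole window in all 4 libraries. Each is the first gene of its ranking with a RefSeq promoter whose start lay within 100 bases of the annotated one.
Pspn: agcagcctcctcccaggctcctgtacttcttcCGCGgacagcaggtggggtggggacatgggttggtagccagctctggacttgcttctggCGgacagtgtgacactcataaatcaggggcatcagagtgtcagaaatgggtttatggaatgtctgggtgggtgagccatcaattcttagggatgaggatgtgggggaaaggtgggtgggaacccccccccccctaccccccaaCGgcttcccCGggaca
Rps12: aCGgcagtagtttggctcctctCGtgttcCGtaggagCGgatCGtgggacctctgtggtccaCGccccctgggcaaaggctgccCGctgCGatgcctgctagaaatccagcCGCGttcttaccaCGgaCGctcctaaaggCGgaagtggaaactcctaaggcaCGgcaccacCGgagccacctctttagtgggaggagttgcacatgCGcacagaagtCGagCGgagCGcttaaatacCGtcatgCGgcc
Actrt2: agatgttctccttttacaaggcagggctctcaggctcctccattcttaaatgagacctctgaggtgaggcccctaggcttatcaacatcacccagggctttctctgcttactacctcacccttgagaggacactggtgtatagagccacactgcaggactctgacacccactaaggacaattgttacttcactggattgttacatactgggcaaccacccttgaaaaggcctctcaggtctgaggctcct
Kcnh5: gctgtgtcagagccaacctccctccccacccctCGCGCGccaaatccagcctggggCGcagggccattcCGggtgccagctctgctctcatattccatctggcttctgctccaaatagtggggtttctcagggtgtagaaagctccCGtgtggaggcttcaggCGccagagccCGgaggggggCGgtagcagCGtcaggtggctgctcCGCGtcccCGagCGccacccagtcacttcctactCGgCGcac
Ascl2: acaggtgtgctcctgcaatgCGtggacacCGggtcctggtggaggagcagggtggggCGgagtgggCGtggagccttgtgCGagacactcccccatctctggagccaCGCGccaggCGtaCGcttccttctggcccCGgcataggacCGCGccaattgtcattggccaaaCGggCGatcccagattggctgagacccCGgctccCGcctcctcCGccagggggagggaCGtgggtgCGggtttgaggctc

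The upstream stretch of Rps12 holds 21 CG dinucleotides and that of Ascl2 holds 19, whereas Actrt2 has 0 and Pspn has 5. Kcnh5, with 16, shows that an mES only promoter can be CpG rich. Over the 9436 genes with such a RefSeq entry the median was 11 CG per 250 bases. It was 16 over the 398 HSPC only genes among them and 5 over the 462 mES only genes.

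The HSPC lists were shorter and narrower than the mES lists but held a larger part of their length at promoters. The mES lists covered 259 and 247 Mb in 166255 and 161656 peaks. The HSPC lists covered 171 and 138 Mb in 132513 and 112281 peaks. On the log2 scale the mean covered length was 27.9 ± 0.0459 in mES cells and 27.2 ± 0.213 in HSPCs (SD, n = 2), a difference of -0.72, and the groups did not overlap (exact permutation test, two-sided, p = 0.333, which no comparison of 2 against 2 can go below; adjusted p = 0.375 over 9 tests). Promoter windows made up 6.57% and 6.96% of the covered bases in mES cells and 10.5% and 11.4% in HSPCs, against 1.59% of the autosomes. Intergenic bases made up 42.6% and 42.1% in mES cells and 34.0% and 33.2% in HSPCs. Gene bodies beyond the promoter took 50.8% and 50.9% in mES cells and 55.5% and 55.4% in HSPCs. None of these 3 shares overlapped between the cell types (exact p = 0.333 each, adjusted p = 0.375). At equal covered length the gene body share differed by 0.0324 percentage points (exact p = 1) and the intergenic share by -3.91, against 4.56 and -8.74 for the full lists.

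The number of marked promoters was alike. In mES cells 14391 and 14579 promoters had a peak, and in HSPCs 14680 and 13657, so the HSPC libraries lay on either side of both mES libraries. The means were 14485 ± 133 and 14168.5 ± 723 (SD, n = 2; two-sided exact permutation test, p = 1). Without HSPC replicate 2, the shorter list, the HSPC value was the higher by 195 promoters. Equal numbers did not mean equal genes, as the classes below show.

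**Figure D1:**
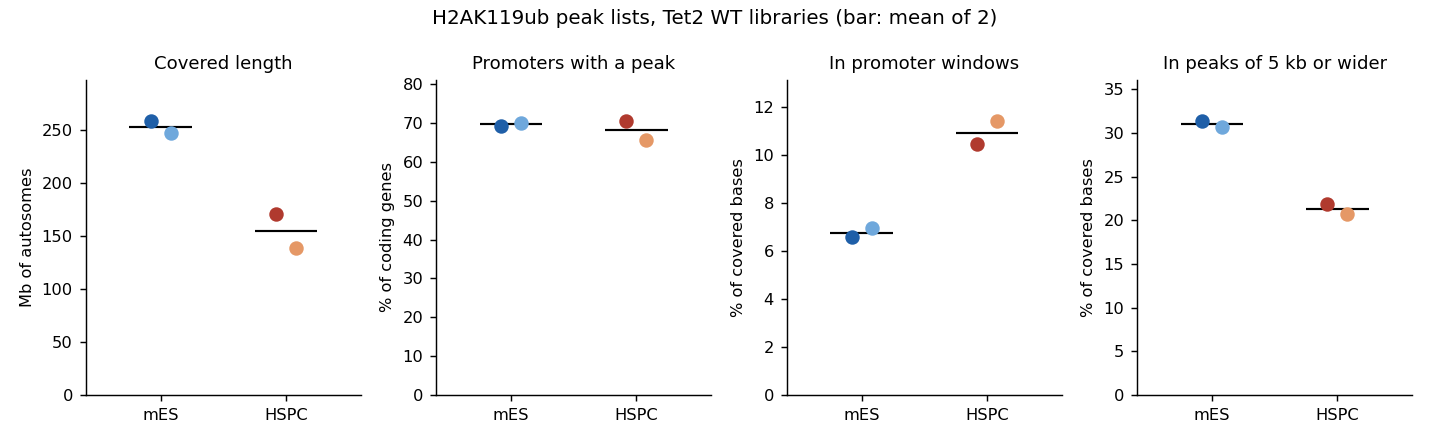
Values of the 4 Tet2 WT H2AK119ub libraries (points) and the mean of each cell type (bar): covered length in Mb of autosomes, percent of coding promoters with a peak, percent of covered bases in promoter windows, and percent of covered bases in peaks of 5 kb or wider. The HSPC points lie below the mES points for length and wide peaks, above them for the promoter share, and on both sides of them for promoters with a peak.

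Wide domains were longer and more numerous in mES cells. The median peak was 757 and 741 bp wide in mES cells and 672 and 651 bp in HSPCs, with means of 749 ± 11.3 and 661.5 ± 14.8 bp (SD, n = 2). Peaks of at least 5 kb numbered 8554 and 8057 in mES cells and 4385 and 3276 in HSPCs, and held 31.4% and 30.7% against 21.9% and 20.7% of the covered bases. Those of at least 20 kb numbered 478 and 414 against 123 and 100. Neither width measure overlapped between the cell types (exact permutation test, p = 0.333 each; adjusted p = 0.375). The widest mES peak reached 151 kb on chromosome 8 (122214223 to 122365679) over Zfpm1, which encodes the GATA cofactor FOG1, and Trhr2. It was broken up but not absent in HSPCs, whose lists covered 92.6% and 86.8% of it. The next ones lay over Engase and Rbfox3 on chromosome 11 (118473104 to 118578386), of which HSPC lists covered 67.5% and 49.1%, and over the glutamate receptor gene Grm4 on chromosome 17 (27363015 to 27461258), with 51.0% and 40.8%.

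The widest HSPC peaks were also covered in mES cells. They measured 54.0 kb on chromosome 17 (56111732 to 56165694, over Plin5, Lrg1, Sema6b and Tnfaip8l1), 52.3 kb on chromosome 12 (112585188 to 112637502, over Inf2 and Adssl1) and 52.0 kb on chromosome 4 (152267344 to 152319345, over Acot7, Gpr153, Hes3, Icmt and Rnf207). The mES lists covered 93.2% to 100% of each. Wide HSPC peaks at large mostly met some mES peak, which does not mean that they were covered over their length. Of HSPC peaks of at least 5 kb, 99.1% in each library touched a peak in both mES libraries, while of mES peaks of that width 87.0% and 87.9% touched a peak in both HSPC libraries. Among the narrowest peaks, at or below the most common width in these lists, the same shares were 36.2% and 39.2% for HSPCs and 12.1% and 12.6% for mES cells.

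Replicates resembled each other less in HSPCs. Of the narrowest mES peaks, those at or below the most common width, 45.9% and 51.7% touched a peak of the other mES library, and of such HSPC peaks 25.9% and 42.2% touched one of the other HSPC library. HSPC replicate 1 had 53.4% of its covered bases in HSPC replicate 2 and 65.3% in mES replicate 1, which is the longer list. Bases covered in both HSPC libraries came to 91.2 Mb and those covered in both mES libraries to 194 Mb. List length moved with cell type in every comparison here, and the 2 cannot be told apart.

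HSPC only promoters numbered 824 (3.96% of 20807) and mES only promoters 1051 (5.05%). A further 11327 (54.4%) were marked in all 4 libraries, 4150 (19.9%) in none, and 3455 (16.6%) in another mixture. Peaks covered these windows in part. The lower of the 2 HSPC values had a median of 33.0% of the window in HSPC only promoters, and 205 of 824 were covered over at least 50% in both libraries. In mES only promoters the median was 38.1%, and 402 of 1051 reached that level. A touch of a few bases also counted: the least covered member of each class had 0.25% of its window under a peak. The lower quartile of these lowest values was 25.04% in both classes, the part of a window under 1 peak of the most common width. Many peaks that narrow did not touch a peak of the other replicate, as given above. Named calls resting on such a peak in at least 1 library of their cell type include Asxl1, Asxl3, Foxj3, Slamf1 and Zfp42. Without mES replicate 2 the HSPC only class held 1397 promoters, and without HSPC replicate 1 the mES only class held 2076. A class then needs fewer libraries to agree, so its count without a library, here and below, can only rise or stay the same. With all lists cut in file order to the covered length of the shortest, which removed mostly narrow peaks and left 6747 and 7185 marked promoters in mES cells, the classes held 6014 and 421.

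The first HSPC only genes were covered over the whole window in both HSPC libraries and over 0% in both mES libraries. They included the histone genes Hist1h3h and Hist1h4a, the neurotrophic factor gene Pspn, the neighbours Rps2 and Rnf151, Ddx39b, Pla2g4b, Tmem8 and Rab5if. Rps2 (ENSMUSG00000044533.15, chromosome 17, 24718116 to 24721929), which encodes a small-subunit ribosomal protein, was covered over 100% of its span in both HSPC libraries and over 22.2% and 20.6% in mES cells. Tmem8 was less clear, since 64.7% and 76.5% of its span was covered in mES cells past the window. The window of Rps2 overlaps that of Rnf151, so the pair is 1 domain and not 2 observations. Ddx39b (ENSMUSG00000019432.15, chromosome 17, 35241746 to 35253707), an RNA helicase of mRNA export, had peaks over 68.8% and 77.9% of its length in HSPCs and 4.19% and 0% in mES cells.

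The first mES only genes were likewise covered over the whole window in both mES libraries and 0% in both HSPC libraries. They were Actrt2, the keratins Krt35, Krt17 and Krt14, the keratin-associated genes Krtap16-1 and Krtap10-10, Lrrc30, Nat8, the homeobox gene Irx6 and the calcium-binding protein gene Calb2. Krt14 (ENSMUSG00000045545.8, chromosome 11, 100203162 to 100207548), the keratin of basal epidermis, was covered over its whole span in both mES libraries and over 11.4% and 0% in HSPCs. Irx6 (chromosome 8, 92674288 to 92680956) was wholly covered in mES cells and had 7.51% and 0% in HSPCs. Calb2 (chromosome 8, 110137502 to 110168210) had 90.7% and 84% of its span covered in mES cells and 1.63% and 3.26% in HSPCs.

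Lists of genes used in most cells had more HSPC only members than the background share, though they held few of the 824. Of 81 ribosomal protein genes, 52 and 59 had a promoter peak in mES cells and 78 in each HSPC library. Of these, 16 (19.8%) were HSPC only and 1 was mES only. The single exception, Rpl10l, is a retrocopy used in the male germ line, covered over 77.9% and 44.6% of its window in mES cells and 0% in HSPCs. Rps12 had 78.8% and 89.6% of its window covered in HSPCs, Rps26 had 68.3% and 100%, Rpl23 had 63.0% and 87.8%, and all 3 had 0% in both mES libraries. The ribosomal count was 26 without mES replicate 2.

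Of the 42 proteasome genes, 25 had a promoter peak in each mES library and 38 and 36 in HSPCs, and 9 were HSPC only against 0 mES only. Psmd11, a lid subunit, had 57.9% and 92.7% of its window covered in HSPCs and Psma3, a core subunit, had 39.0% and 72.5%. Psmb1 faces Tbp across a shared window, so these 2 genes again stand for 1 domain. Among 81 genes of oxidative phosphorylation 6 were HSPC only and 0 mES only, and among 78 of the mitochondrial ribosome the counts were 7 and 0. Cox5a, of complex IV, had 49.2% and 75.01% of its window covered in HSPCs and 0% in mES cells. Mrpl52 had 60.8% and 56.9%, again against 0%. Of 14 widely expressed reference genes, all had a promoter peak in both HSPC libraries and 10 in each mES library. HSPC only members included Ppia and Tbp, Ppia with 90.4% and 100% of its window covered in HSPCs.

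Replication-dependent histone genes, whose transcripts end in a stem-loop and not in a poly(A) tail, gave the highest HSPC only share of any list above 20 genes. Of 68, 33 and 36 had a promoter peak in mES cells and 61 in each HSPC library. HSPC only members numbered 18 (26.5%) and mES only members 0, and the count was 28 without mES replicate 2. All 18 lie on chromosome 13, and their windows merge into 14. Hist1h3h (ENSMUSG00000101355.1, chromosome 13, 21717659 to 21718069) was wholly covered in HSPCs and 0% covered in mES cells, and Hist1h3a had 65.1% and 100% of its window covered against 0%. These genes are near copies of each other, and the aligner reported 1 best position for a read that fitted several, so the split between copies is uncertain.

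**Figure D2:**
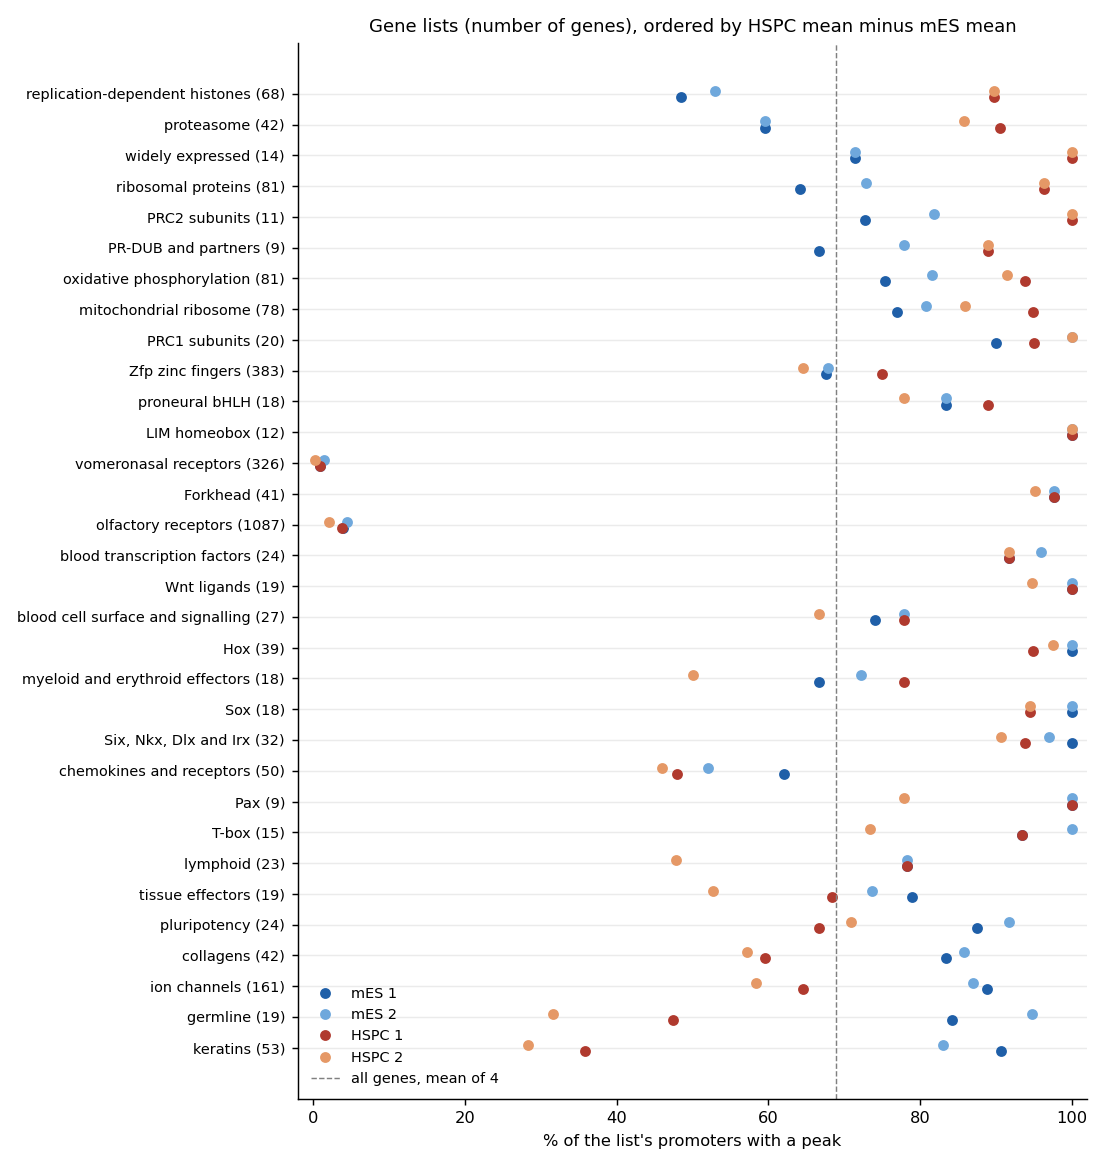
Percent of the promoters of each of 32 gene lists with an H2AK119ub peak (x axis), 1 point per library, with lists ordered by the HSPC mean minus the mES mean; the dashed line is the mean over all coding genes. Histone, proteasome and ribosomal lists stand at the top, where HSPC points lie right of mES points, and keratins, germline genes and ion channels at the bottom, where the order is the reverse.

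Several lists of genes of differentiated tissues had more mES only members than the background share, though they held few of the 1051. Of 53 keratin genes, 48 and 44 had a promoter peak in mES cells and 19 and 15 in HSPCs, and 21 (39.6%) were mES only against 0 HSPC only. Of 161 ion channel genes, 143 and 140 had a promoter peak in mES cells and 104 and 94 in HSPCs, and 32 (19.9%) were mES only against 0. Grin2a, an NMDA receptor subunit, and Kcns3, a potassium channel subunit, had wholly covered windows in both mES libraries and 0% in HSPCs. Kcnh5 had 100% and 94.2% in mES cells. Of 42 collagen genes 9 were mES only, among them Col4a3 and Col4a4, which share a window and had 88.4% or more of it covered in each mES library. The clustered protocadherins of chromosome 18, added after their values were seen, had a peak at 55 and 53 of 57 promoters in mES cells and at 9 and 6 in HSPCs. Of the 57, 45 were mES only. Of the other 456 genes of that chromosome, 24 (5.26%) were.

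Germline genes, many of them silenced through CpG-rich promoters in somatic cells, followed the same direction. Of 19, 16 and 18 had a promoter peak in mES cells and 9 and 6 in HSPCs, and 6 were mES only against 0 HSPC only (10 without HSPC replicate 1). Ddx4, a helicase of germ cells, had 92.3% and 84.9% of its window covered in mES cells and 0% in HSPCs. The meiotic gene Sycp1 had 87.4% and 87.3%, and Hormad1 had 72.6% and 59.97%, both against 0%.

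The remaining lists gave small counts, or shares near or below the background. Chemokines and their receptors had 4 of 50 mES only, lymphoid genes 3 of 23, tissue effectors 1 of 19, and all 3 had 0 HSPC only. The lymphoid and chemokine shares lay above the 5.05% of all genes that were mES only, on these few genes. Myeloid and erythroid effectors had 0 of 18 in either class. Zinc finger genes named Zfp had 24 HSPC only and 21 mES only of 383, shares near the background. Olfactory receptors, silent outside the nose and in CpG-poor clusters, had 2 HSPC only and 12 mES only of 1087, and 1007 were marked in no library. For vomeronasal receptors 318 of 326 were marked in no library and 0 were in either class.

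Blood transcription factors were marked alike in both cell types, and none fell in either class. Of 24, 22 (91.7%) were marked in all 4 libraries, against 54.4% of all genes. Gata2 (chromosome 6, 88193891 to 88207032), a regulator of blood stem cells, had 100% of its window covered in all 4 and 100%, 100%, 90.7% and 100% of its span, in the order mES 1, mES 2, HSPC 1, HSPC 2. Spi1, the master regulator of myeloid cells, had 75.3% and 82.6% of its window covered in mES cells and 100% and 82.2% in HSPCs. Runx1 (chromosome 16, 92601466 to 92826149) had 44.3% and 24.8% of its window covered in mES cells and 100% in each HSPC library, but its span was covered more in mES cells, over 49.5% and 48.2% against 20.99% and 26.9%. Among 27 blood surface and signalling genes 2 were mES only, Cd48 (75.8% and 48.3% of the window in mES cells) and Slamf1 (25.04% and 22.7%), and 0 were HSPC only.

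Pluripotency genes did not separate the labels in the way their expression would. Of 24, 15 (62.5%) were marked in all 4 libraries, against 54.4% of all genes. Of the 24, 0 were HSPC only and 3 were mES only: Dppa3, Tcl1 and Zfp42. Dppa3, expressed in naive stem cells and the early germ line, had 100% of its window covered in both mES libraries. Zfp42, known as Rex1, had 31.5% and 25.04%, and HSPCs had 0% at each of the 3. Pou5f1 (ENSMUSG00000024406.16, chromosome 17, 35506018 to 35510772), the core factor OCT4, had peaks over 32.3% and 37.9% of its length in mES cells and 89.1% and 85.0% in HSPCs. Esrrb went the other way, with 43.0% and 40.1% of its span covered in mES cells and 7.52% and 5.90% in HSPCs.

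The cell type labels could not be checked from these lists in the way RNA allows. Of the 10 HSPC markers, 8 had a promoter peak in all 4 libraries, Ptprc had none in any, and Cd48 was mES only. Of the 10 mES markers, 5 had a peak in all 4, 4 were mixed, and Zfp42 was mES only. Among markers of cells that a sort or a feeder layer could leave behind, 1 of 2 erythroid markers (Klf1) and 3 of 4 fibroblast markers were marked in all 4 libraries, and Ms4a1 and Hbb-bt were marked in none. Col1a2, the remaining fibroblast marker, was mES only, with 66.2% and 68.4% of its window covered in mES cells. The part of such cells in any result was not tested.

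Genes of the ubiquitin and methyl machinery itself lay mostly in the shared class, which held 54.4% of all coding promoters. Of 20 PRC1 genes 17 were marked in all 4 libraries and 0 fell in either class. Of 11 PRC2 genes, 8 were shared and 2 were HSPC only: Eed, the subunit that reads H3K27me3, with 73.2% and 46.2% of its window covered in HSPCs, and Mtf2, a partner that guides PRC2 to CpG islands, with 33.2% and 34.8%. Of 9 PR-DUB genes and partners 5 (55.6%) were shared, near the share of all genes. Asxl2 (76.0% and 57.2% of the window in HSPCs) and Asxl1 (49.7% and 25.04%) were HSPC only. Asxl3 (25.04% in each mES library) was mES only. The values of 25.04% each stand for 1 peak of the most common width, so the calls of Asxl3 and Asxl1 are weak. Bap1, the catalytic subunit, was marked in all 4 libraries, but over 37.6% and 13.4% of its window in mES cells and 100% and 71.4% in HSPCs. Its span was covered over 0% in both mES libraries and 58.8% and 61.7% in HSPCs.

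Developmental regulators were marked in both cell types. Of 39 Hox genes, all had a promoter peak in both mES libraries and 37 and 38 in HSPCs. Across Hox, Pax, LIM homeobox, Forkhead, T-box, sine oculis with Nkx, Dlx and Irx, Sox, proneural bHLH and Wnt lists, 1 gene was HSPC only (Foxj3, with 25.04% and 20.99% of its window) and 2 were mES only (Irx6 and Irx1). All 12 LIM homeobox genes were marked in all 4 libraries. Over these lists that share ran from 72.2% of proneural bHLH to 100% of LIM homeobox genes, against 54.4% of all coding genes. The counts marked in all 4 were 36 of 39 Hox, 7 of 9 Pax, 37 of 41 Forkhead, 11 of 15 T-box, 28 of 32 sine oculis, Nkx, Dlx and Irx, 16 of 18 Sox, 13 of 18 proneural bHLH and 18 of 19 Wnt genes.

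What differed over these shared promoters was how far the peak reached. Over the 178 shared promoters of the 9 developmental lists, the widest peak touching the window had a median width of 8308 and 9136 bp in mES cells and 4821 and 3400 bp in HSPCs. It was wider in both mES libraries than in either HSPC library at 120 (67.4%) and the reverse at 13 (7.30%). Over all 11327 shared promoters the same counts were 3229 (28.5%) and 3957 (34.9%), with medians of 2086, 2028, 2330 and 1959 bp. By counts and medians the HSPC peaks were thus not narrower over shared promoters at large. At the upper quartile they were, with 5184 and 5036 bp in mES cells and 4664.5 and 4110 bp in HSPCs. Whether the narrowing went with gene type or with peak width was not tested. By developmental list, the share wider in mES cells ran from 59.5% of Forkhead genes to 85.7% of Pax genes. Among 36 Hox promoters 24 were wider in mES cells against 0 in HSPCs. Neighbours could lie under 1 peak, as Hoxa3 and Hoxa6 did in mES cells (23431 and 23714 bp). Such promoters are not separate observations in this or the other width counts. The Hoxa cluster (chromosome 6, 52155590 to 52260880) was covered over 86.6% and 87.4% in mES cells and 58.9% and 62.1% in HSPCs, in 15 and 14 peaks against 20 and 21. Coverage of the Hoxb, Hoxc and Hoxd clusters was likewise higher in both mES libraries than in either HSPC library, at 72.4% to 86.3% against 49.0% to 74.4%.

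The housekeeping lists went the other way. Over the 174 shared promoters of the ribosomal, respiratory, proteasome and mitochondrial ribosome lists, medians were 814.5 and 866 bp in mES cells and 1797 and 1994.5 bp in HSPCs. The peak was wider in both HSPC libraries at 118 (67.8%) and in both mES libraries at 3. Ribosomal protein genes led, with 42 of 48 wider in HSPCs, and shared histone genes had 20 of 24. Blood transcription factors had 7 of 22 wider in mES cells and 4 wider in HSPCs. Tal1 had peaks of 14612 and 19136 bp in mES cells against 8774 and 8255 bp, whereas Cebpa, a myeloid regulator, had 3828 and 3739 bp against 9150 and 7879 bp. The largest differences toward HSPCs, of the genes ranked by the gap between the groups, were at Plekhj1 and Sf3a2 on chromosome 10, under 1 peak of 30082 and 27493 bp in HSPCs and 1813 and 2150 bp in mES cells. Toward mES cells, after Zfpm1, Engase and Plxnd1, came Epn3, the homeobox gene Lmx1b (49739 and 50300 bp against 9964 and 2968 bp) and Foxf1 (43691 and 43375 bp against 3924 and 4354 bp).

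**Figure D3:**
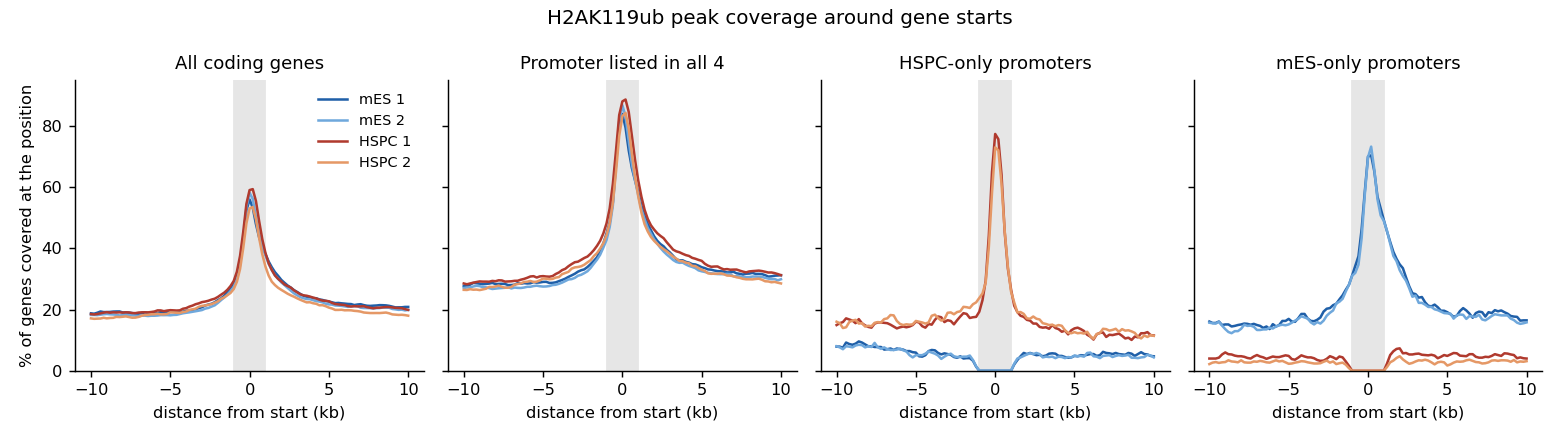
Percent of genes with an H2AK119ub peak at each distance from the gene start (x axis in kb, grey band the window used for calling), for all coding genes, for promoters marked in all 4 libraries, and for HSPC only and mES only promoters, 1 line per library. Over all genes the 4 lines lie close together and top out between 53.5% and 59.3%; in the 2 right panels the zero values inside the grey band follow from how the classes were called, and the values beside it are shaped by the same rule.

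Beside the window the profiles are a description, since a peak that crossed into it was required in 1 cell type and barred in the other. At 5 kb upstream of HSPC only starts, 16.0% and 16.3% of genes were covered in HSPCs and 5.95% and 5.10% in mES cells. At 5 kb upstream of mES only starts, 16.9% and 15.1% were covered in mES cells and 4.85% and 2.28% in HSPCs. For all genes those values were 19.2% and 18.1% in mES cells and 19.8% and 19.1% in HSPCs. The mES only peaks reached further into the gene. At 1 kb downstream, 49.2% and 48.9% of mES only genes were covered in mES cells, and 26.6% and 25.8% of HSPC only genes in HSPCs.

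CpG content separated the classes. The ratio of observed to expected CpG in the promoter window had a median of 0.667 in HSPC only genes (quartiles 0.499 and 0.788) and 0.338 in mES only genes (0.221 and 0.486), with 0.486 over all genes and 0.591 over shared ones. A ratio of at least 0.6 was found in 64.3% of HSPC only, 12.2% of mES only and 35.0% of all promoters. In the highest stratum, of 0.8 and over, HSPC libraries marked 94.4% and 92.5% of 1770 promoters and mES libraries 76.8% and 79.4%, and 10.2% were HSPC only against 0.960% mES only. From 0.2 to 0.4 the order was the reverse, with 58.4% and 51.0% of 3961 promoters marked in HSPCs and 68.2% in each mES library, and 2.12% HSPC only against 10.8% mES only. The germline list, with a median ratio of 0.516, lay near all genes.

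**Figure D4:**
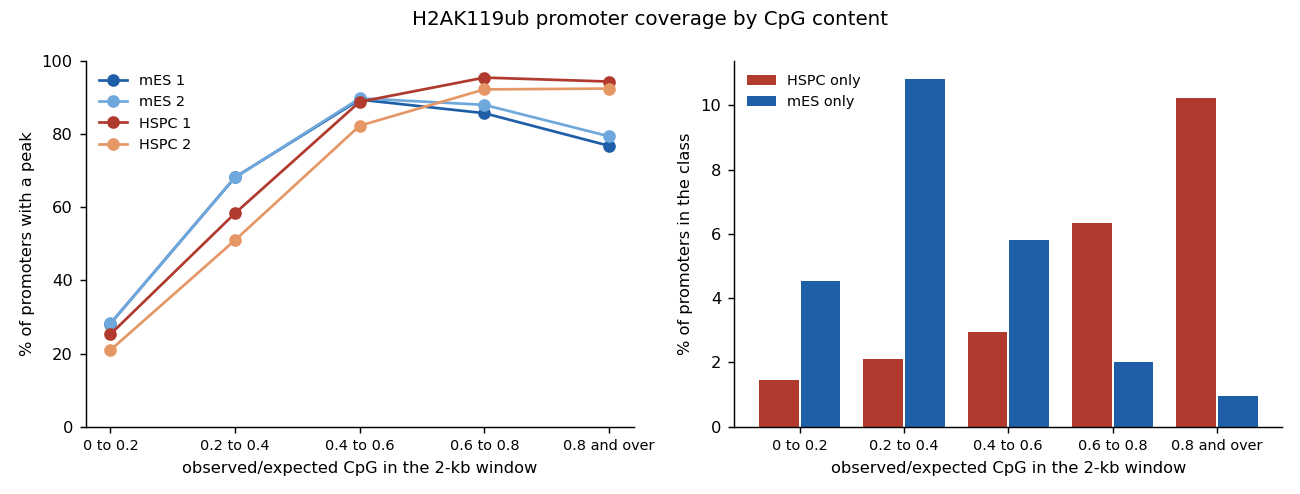
Left, percent of promoters with an H2AK119ub peak in each library by the observed/expected CpG ratio of the 2-kb promoter window; right, percent of promoters in each stratum that were HSPC only or mES only. HSPC libraries mark more of the promoters at 0.6 and over and mES libraries more of those from 0.2 to 0.4.

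HSPC only promoters also differed in their neighbours. Another coding gene started within 1 kb of 25.4% of them, against 17.0% of shared, 3.43% of mES only and 12.9% of all coding genes. Such a partner ran on the opposite strand for 192 of these 209 genes, and for 2321 of 2681 among all coding genes. Windows of the 824 genes merged into 714, and those of the 1051 mES only genes into 1029. Median gene length was 24.9 kb in HSPC only, 28.0 kb in mES only and 17.6 kb in all genes, with an upper quartile of 113 kb in mES only genes.

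H3K27me3, from separate WT libraries of the same cell types that the classes did not use, split the classes unevenly. In mES cells 77.4% and 81.0% of mES only promoters had an H3K27me3 peak, and 6.80% and 7.40% of HSPC only promoters, against 48.4% and 50.9% of all. In HSPCs, 53.3% and 58.5% of HSPC only promoters had an H3K27me3 peak and 54.5% and 55.9% of mES only promoters, against 60.5% and 62.7% of all. Ribosomal protein promoters with an H3K27me3 peak numbered 15 and 17 of 81 in mES cells and 64 and 61 in HSPCs. For keratins the counts were 45 and 47 of 53 in mES cells and 41 and 42 in HSPCs. For the 14 widely expressed reference genes they were 2 and 3 in mES cells and 10 in each HSPC library. Whether peaks at such active genes hold the mark was not tested. The H3K27me3 lists thus split ribosomal genes in the same direction as the H2AK119ub lists, and keratin genes far less.

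Tet2 KO libraries of the same cell types, which the classes did not use either, gave many of the same calls. Called on the 4 KO libraries alone, 1071 promoters were HSPC only (5.15%) and 712 mES only (3.42%). Of the 824 WT HSPC only promoters, 449 (54.5%) were HSPC only in KO as well and 1 was mES only. Of the 1051 WT mES only promoters, 427 (40.6%) were mES only and 7 HSPC only. Most of the others were marked in some but not all KO libraries or in all 4. In KO, 19 ribosomal protein genes were HSPC only and 1 mES only, 17 and 2 histone genes, 0 and 17 keratins, 1 and 23 ion channels, and 0 and 5 germline genes.

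A gene body was called covered where peaks held at least 50% of its span. This was met by 4880 and 4744 genes in mES cells and 4681 and 4147 in HSPCs (means 4812 ± 96.2 and 4414 ± 378, SD, n = 2; exact permutation test, p = 0.333, adjusted p = 0.375, two-sided). HSPC only gene bodies numbered 742 (3.57%) and mES only gene bodies 1072 (5.15%), and 2774 were covered in all 4. The difference of -398 was -665 without HSPC replicate 1 and -131 without HSPC replicate 2. In the latter case the HSPC value left, 4681, still lay below both mES values. Without HSPC replicate 1 the mES only count was 1610. The HSPC only genes had a median length of 8.14 kb, near the 7.36 kb of bodies covered in all 4, against 17.5 kb for mES only and 17.6 kb for all. Of them, 82.1% had a promoter marked in all 4 libraries, against 54.4% of all genes. A touch counted as marked, so coverage of the window could still differ, as it did at Bap1. The HSPC only group held 30 of 81 ribosomal protein genes and 29 of 68 histone genes (1 and 2 in the reverse class). It also held 9 of 78 mitochondrial ribosome genes (0 in the reverse class), Pou5f1, Bap1 and the erythroid factor gene Nfe2. A span begins inside the promoter window, so the 2 measures overlap. For a short gene such as Hist1h3h, of 411 bp, the whole span lies in that window. The mES only group held 27 of 53 keratins, 29 of 161 ion channels, 11 of 42 collagens, 7 of 23 lymphoid genes and 6 of 39 Hox genes. Bcl11b, a T cell regulator, had peaks over 79.6% and 80.9% of its length in mES cells and 8.66% and 4.30% in HSPCs. On KO libraries alone HSPC only bodies came to 3.21% and mES only bodies to 4.54% of genes. Of the WT classes 396 of 742 (53.4%) and 696 of 1072 (64.9%) were called the same there.

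Over the genome, 82548 of 2396088 bins of 1 kb were mES only (3.45%, covered over at least 50% in both mES and neither HSPC library) and 16017 were HSPC only (0.668%). HSPC only bins lay at promoters in 12.3% of cases, in gene bodies in 56.4% and between genes in 31.3%. For mES only bins these shares were 2.76%, 47.5% and 49.7%, and for all bins 1.63%, 40.4% and 58.0%. HSPC only bins were often beside shared signal: 53.4% lay within 5 bins of a bin covered in all 4 libraries, against 26.9% of mES only bins. Repeats masked in the genome made up 22.0% of HSPC only bins, 17.0% of mES only bins and 33.5% of all. Without HSPC replicate 2 there were 47541 HSPC only bins and without HSPC replicate 1 there were 41520. Without mES replicate 2 there were 129418 mES only bins. These counts could only rise or stay, since fewer libraries then had to meet the rule.

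The longest runs of such bins give places where the cell types differed without a break. In mES cells a run of 21 kb lay on chromosome 15 (74208001 to 74229000), between genes and 287195 bp from Adgrb1, covered over 97.3% and 98.1% in mES cells and 2.39% and 0% in HSPCs. Runs of 19 kb lay within an intron of Igsf21 on chromosome 4 (140217001 to 140236000) and in the muscle membrane repair gene Dysf on chromosome 6 (84128001 to 84147000), where 596 bases were exonic. The longest HSPC only run was 9 kb, over Pwp2, a ribosome biogenesis gene, on chromosome 10 (78170001 to 78179000), covered over 93.9% and 100% in HSPCs and 9.48% and 19.1% in mES cells. Runs of 8 kb lay over the noncoding gene Snhg7os on chromosome 2 (26641001 to 26649000) and over Ddx39b on chromosome 17 (35240001 to 35248000), the latter with 2230 exonic bases of which 616 were coding. Of 13866 HSPC only runs 88.1% were a single bin, and of 58820 mES only runs 76.3%.

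Noncoding genes differed by kind. Starts of 5209 lincRNA genes had a peak within 1 kb in 48.9% and 48.2% of cases in mES cells and 33.3% and 27.2% in HSPCs. Of these genes 741 (14.23%) were mES only and 71 (1.363%) HSPC only, against 5.05% and 3.96% of coding genes. For 2913 antisense genes the classes held 256 (8.788%) and 99 (3.399%). Of 8924 processed pseudogenes 701 were mES only and 137 HSPC only, and of 1442 snoRNA genes 136 and 82. Starts of 2054 miRNA genes were marked in 43.3% and 41.7% of cases in mES cells and 40.7% and 36.9% in HSPCs, and those of 1292 snRNA genes in 17.9% and 18.1% against 19.0% and 17.4%, where the groups overlapped. The lists carry no strand, so a peak at an antisense start cannot be told apart from one at its partner.

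The covered share did not differ by the same factor on every chromosome. The ratio of the mean covered percent in mES cells to that in HSPCs had a median of 1.598 over 19 autosomes. It was 2.4 on chromosome 8, 2.35 on chromosome 6 and 2.25 on chromosome 13, and 1.25 to 1.89 on the other 16. Chromosome 8 was covered over 18.8% and 18.02% in mES cells and 8.43% and 6.89% in HSPCs. In Tet2 KO libraries chromosome 8 again stood highest at 2.14, while chromosomes 6 and 13, at 1.63 and 1.57, lay near the other 16 (1.17 to 1.62). For WT H3K27me3 chromosome 8 was at 1.84, chromosomes 6 and 13 at 1.4 and 1.35, and the others at 1.01 to 1.55. Whether the mES cells held the same number of copies of each chromosome was not tested. Of 2990 genes on the 3 chromosomes, 6.86% were mES only and 3.04% HSPC only, and of 17817 genes elsewhere 4.75% and 4.11%. On chromosome 8 itself 92 of 1040 were mES only and 8 HSPC only. Among named genes this touches the Hoxa cluster, Gata2, Dppa3, Nat8, Col1a2, Plxnd1 and the run in Dysf on 6. It also touches Zfpm1 with Trhr2, Foxf1, Zfp42, Irx6, Calb2 and Klf1 on 8, and Irx1 and Ddx4 on 13. The histone genes of chromosome 13 stood in the reverse direction. Without the 3 chromosomes the log2 difference in covered length was -0.61, and 15 ribosomal, 8 proteasome, 21 keratin, 29 ion channel and 5 germline genes stayed in their classes.

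**Figure D5:**
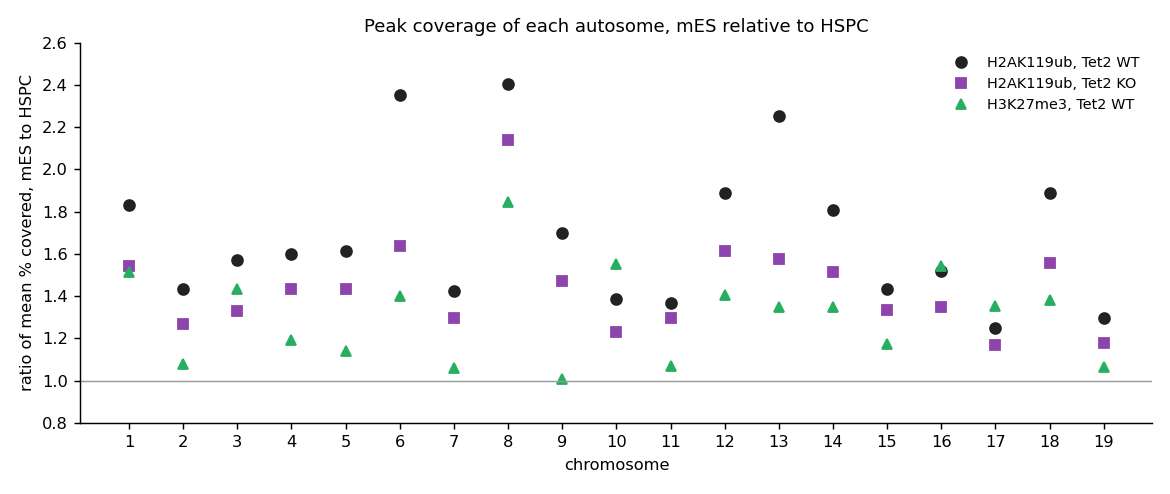
Ratio of the mean percent of known bases covered by peaks in mES cells to that in HSPCs (2 libraries each) for each autosome, for WT H2AK119ub, Tet2 KO H2AK119ub and WT H3K27me3; the y axis starts at 0.8 and the grey line marks a ratio of 1. Chromosome 8 stands highest in all 3 sets, and chromosomes 6 and 13 stand out in WT H2AK119ub.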

How the data were processed

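CUT&Tag libraries were made with a commercial kit, Drosophila spike-in chromatin and an H2AK119ub antibody. According to the methods and processing notes, the authors trimmed reads (Trimmomatic 0.39), aligned them to mm10 with Drosophila DNA (Bowtie2 2.4.1, 1 best position per read), removed duplicates with Picard and called broad peaks with MACS2. HOMER 4.9 is also named in the submitters' processing notes. The deposited values are start and end positions of peaks, 1 list per library, with no count, height or p-value, so no spike-in scaling or depth can be read from them.

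Bases, promoters, gene spans and 1-kb bins under peaks were computed on the autosomes (Python 3.11.15, numpy 2.4.6, pandas 2.3.3) against GENCODE M21. Library values were compared by exact permutation (two-sided, 6 assignments), Benjamini-Hochberg adjusted over 9 tests. Classes and lists were counted without a test, beside the share of all genes called. Genes were named by their lowest window coverage in their own cell type, then by the difference in span coverage, passing over Gm and Rik symbols: the first 10 per class, up to 6 per list and class, and the markers. Other genes, Bap1, Tal1, Cebpa and Nfe2 among them, and the protocadherin and chromosome counts were chosen after their values were seen. The comparison and the 32 lists were chosen with earlier results of these data known. Some named items are not reported here. The scripts were tested on simulated lists. Alternatives covered peak width, joining, list size (lists cut in file order), windows, thresholds, each left-out library and a replicate block.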

Additional observations from a re-analysis of the deposited data

How the results depend on the processing

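Of 105 library differences recomputed under the alternatives 98 kept their direction and 7 reversed. The 98 include those under the replicate block, which keeps the direction by construction. Lists cut in file order, in which wide peaks stand first, to equal covered length reversed the log2 difference in peak number (1.69) and those in marked promoters (6559.5 more in HSPCs) and covered bodies (655 more). Marked promoters also reversed with peaks of at least 1 kb (468), equal peak number (845), at least 50% of the window (473) and without HSPC replicate 2 (195).

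Equal covered length gave 6014 HSPC only and 421 mES only promoters, 630 mES only bodies, 29799 HSPC only and 39588 mES only bins, a CpG difference between the class medians of 0.231, 14 housekeeping promoters wider in HSPCs, 3805 and 151 promoters in the same class in KO, and 4146 HSPC only and 393 mES only promoters with H3K27me3 in both libraries of their own cell type. It left 1 germline, 1 collagen and 16 ion channel genes mES only. It raised HSPC only counts to 64 ribosomal, 54 histone and 27 proteasome genes. With peaks of at least 1 kb these 3 counts were 35, 39 and 5, and at 50% of the window 33, 36 and 5. Histone genes numbered 34 at equal peak number. The difference in covered bodies kept its sign but the groups overlapped (exact permutation p = 0.667) with joined peaks (-348), equal peak number (-243) and bodies 25% covered (-331.5). HSPC only promoters were 1641 with peaks of at least 1 kb, 1459 at equal peak number and 1626 at 50% of the window. For the same alternatives the KO counts were 971, 799 and 937. With peaks of at least 1 kb the CpG difference was 0.286 and housekeeping promoters wider in HSPCs numbered 31. The CpG difference was 0.279 at 50% of the window, 0.218 with the wider and 0.431 with the narrower window. HSPC only promoters with H3K27me3 numbered 727 at equal peak number. HSPC only bodies were 471 at 75% covered. HSPC only bins were 27081 when touched and 7704 when wholly covered, and mES only bins 50906 when wholly covered. The cause was not tested.

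Leaving out 1 library gave 1019 to 1397 HSPC only and 1246 to 2076 mES only promoters, 1151 to 1610 mES only bodies, 21616 to 47541 HSPC only and 96473 to 129418 mES only bins, CpG differences of 0.285 to 0.361, and 386 to 701 HSPC only and 865 to 1542 mES only promoters with H3K27me3, and marked-promoter differences of -828 to 195. Of these values, the class counts could only rise or stay the same, since a class then needed fewer libraries to agree. A replicate block leaves a difference of means as it is, so the log2 covered length difference was again -0.72 and no direction could change. Within same-numbered pairs the marked-promoter difference was 289 and -922, of opposite sign. Same-numbered libraries deviated together with r = 0.00889 over promoters, which shows no pairing gene by gene. Replicate 1 was the longer list in both cell types, and whether same-numbered libraries shared a batch was not tested. Leaving out chromosomes 6, 8 and 13 and the peak-width counts were chosen after seeing the data; 0 histone genes then stayed HSPC only. Depth is unknown and limits what a missing peak means.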
